A study of Mus musculus with 24 samples.

Results

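The interaction of genotype and temperature asks whether BAT labelled BATdKO, in which the alleles of both corepressor subunits were to be deleted, changed its transcripts differently from BAT labelled Cre- between 30°C and 8°C. It was measured as the log2 change from 30°C to 8°C in BATdKO mice minus the same log2 change in Cre- mice, so that a positive value stands for a change that was more positive in BATdKO. All 24 of the 24 libraries entered it, in 4 groups of 6 mice (n = 6 per group). BATdKO mice carried Ucp1CreERT2, a tamoxifen-inducible Cre recombinase under the promoter of the brown adipocyte gene Ucp1, together with floxed alleles of TBLR1 (Tbl1xr1) and TBL1 (Tbl1x), and Cre- mice carried the same floxed alleles without the recombinase. Mice of both genotypes received tamoxifen. They were then housed for 4 days at 30°C or, after a stepwise lowering of the temperature, for 6 days at 8°C per the labels. The paper gives fewer days in the cold. The labels describe females and the paper males, and the age at tamoxifen is in years in the labels and in weeks in the paper. A recombinase driven by Ucp1 acts in brown adipocytes and leaves the other cells of the tissue undeleted.

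TBLR1 and TBL1 are subunits of the NCOR/HDAC3 corepressor complex, which nuclear receptors recruit to keep target genes low. In the cold, noradrenaline acts on beta-adrenergic receptors of the brown adipocyte, and cAMP then drives lipolysis, fatty acid oxidation and the transcription of Ucp1, whose product lets mitochondria burn fuel to give heat. Brown fat also makes new fatty acids and triglycerides in the cold, which refill its lipid droplets.

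The libraries were 3′ tag libraries, in which each transcript gives a single tag near its 3′ end, and held 699703 to 11527643 counts (median 6644365). Levels are given as CPM, the counts scaled to library size after TMM normalization, unless summed. Some libraries and markers went against the labels. Both floxed genes were higher, not lower, under the BATdKO label at 8°C, with Tbl1xr1 at 33.7 to 44.3 CPM against 18.2 to 24.6 CPM in Cre-. The deleted exons are not given in the sources used here, so that the 3′ tags may lie outside them and then check nothing. At 30°C, the libraries labelled m6 stood apart in each genotype. Tbl1xr1 was 38.6 CPM in Cre- m6 (16.4 to 24.6 in the other Cre- mice) and 17.0 CPM in BATdKO m6 (29.8 to 42.0 in the other BATdKO mice). BATdKO and Cre- therefore name the labels of the libraries, and results are given with and without both m6 libraries at 30°C. Hepatocyte markers were abundant in tissue labelled brown fat. The 14 markers, led by Alb, took 3.26% to 5.12% of the counts of a library, and 22 Mup genes, near-identical liver genes that share reads, took 10.9% to 16.5%. Ucp1 itself ranged from 28.9 to 2076 CPM.

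**Figure D1:**
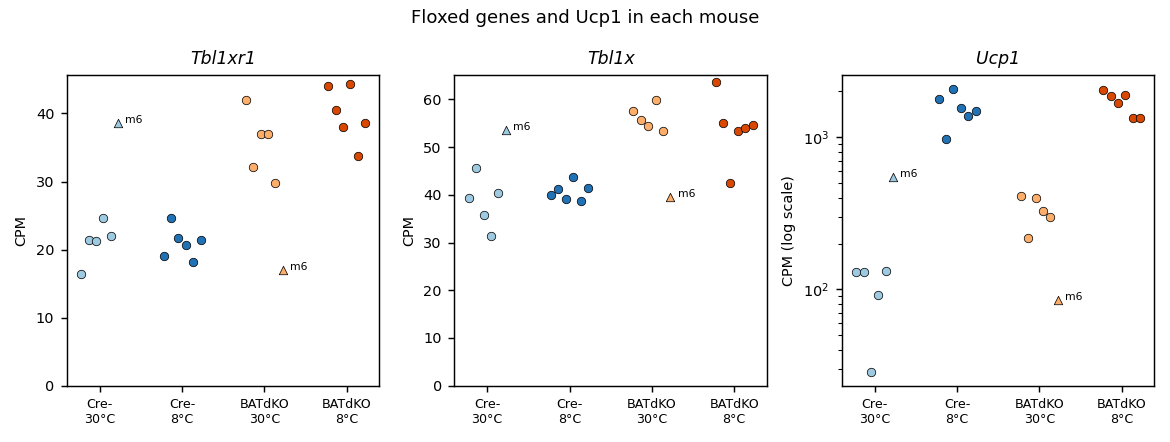
CPM of the floxed genes Tbl1xr1 and Tbl1x (linear axes from 0) and of Ucp1 (log axis) in each mouse, by labelled genotype and temperature. Triangles mark the m6 libraries at 30°C, where Ucp1 was 548 CPM in Cre- m6 and 84.7 CPM in BATdKO m6.

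Only a few genes differed in their response to temperature between the genotypes by the adjusted test. Of 12485 genes tested with edgeR's quasi-likelihood test, 12 (0.0961%) had an adjusted p under 0.1, 7 (0.0561%) with a positive and 5 (0.04%) with a negative interaction. The unadjusted p was under 0.05 for 1005 genes (8.05%), of which 429 (3.44%) were positive and 576 (4.61%) negative. Of the 4 simple comparisons that make up the interaction, 3 called more genes, with 1143 (9.15%) for cold in Cre-, 883 (7.07%) for cold in BATdKO and 227 (1.82%) for genotype at 8°C. At 30°C, edgeR called no gene for genotype (0%), with 1303 (10.4%) at an unadjusted p under 0.05, where DESeq2 called 90 and limma voom 44. The standard error of a single interaction had a median of 0.22 log2 units, against 0.15 for cold in Cre-, which limits the changes that could be called.

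The called genes differed in which genotype responded to cold. Cbr1, Ighm, Dgat2, Dcaf12 and the noncoding B930025P03Rik rose with cold in BATdKO and did not pass in Cre-, and Gngt2 rose in BATdKO and fell in Cre-. Irak3, Gm47595 and Myo5a rose with cold in Cre- and did not pass in BATdKO, and Ivns1abp fell with cold in Cre- and did not pass in BATdKO. Mmd2 fell in both genotypes, and more in BATdKO. Gm5898 rose in Cre- and fell in BATdKO. Without both m6 libraries at 30°C, 3 of these changes were no longer called, those of Gngt2 in Cre- (-0.29, adjusted p = 0.174), Mmd2 in Cre- (-0.40, adjusted p = 0.206) and Gm5898 in BATdKO (-0.28, adjusted p = 0.11). At 8°C, 10 of the 12 genes were also called for genotype, against 1.82% of all genes, in data that the interaction shares. At 30°C edgeR called 0% of all genes on these libraries, so that no count could arise there.

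Promoters are shown for the leading gene of either sign by p, Cbr1 and Irak3, since the deleted proteins act at regulatory DNA. RefSeq gave a promoter window, 250 bases before to 50 after a transcript start (GRCm38.p6), for 7 of the 12 called genes, and Irak3 has a pair of starts. Capitals mark a CACGTG E-box, which reads the same on both strands.

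Cbr1, chr16:93607587-93607886, + strand: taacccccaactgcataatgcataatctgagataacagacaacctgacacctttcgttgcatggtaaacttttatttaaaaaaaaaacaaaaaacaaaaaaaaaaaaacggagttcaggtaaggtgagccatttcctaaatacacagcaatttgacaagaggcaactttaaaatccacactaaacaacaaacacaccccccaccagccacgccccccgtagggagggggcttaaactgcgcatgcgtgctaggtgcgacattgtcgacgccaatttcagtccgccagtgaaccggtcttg
Irak3, upstream start, chr10:120202081-120202380, - strand: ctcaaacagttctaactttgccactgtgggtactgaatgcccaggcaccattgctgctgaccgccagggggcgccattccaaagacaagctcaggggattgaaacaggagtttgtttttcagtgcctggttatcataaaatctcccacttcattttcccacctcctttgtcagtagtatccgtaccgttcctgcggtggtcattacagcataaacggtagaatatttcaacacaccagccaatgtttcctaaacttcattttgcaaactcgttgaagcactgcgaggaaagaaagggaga
Irak3, downstream start, chr10:120201548-120201847, - strand: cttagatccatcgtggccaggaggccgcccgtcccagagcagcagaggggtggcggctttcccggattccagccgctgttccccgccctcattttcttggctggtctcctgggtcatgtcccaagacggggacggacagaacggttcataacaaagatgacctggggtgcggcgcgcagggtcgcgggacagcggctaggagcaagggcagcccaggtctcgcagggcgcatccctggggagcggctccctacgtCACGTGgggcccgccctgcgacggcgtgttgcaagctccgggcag

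The E-box lies in the window of the downstream start of Irak3. CACGTG was also found in both windows of Ivns1abp, which overlap and hold the same site. It occurred in 7.15% of 32851 windows of all genes. The CRE letters TGACGTCA, in 1.79% of all windows, and the antioxidant element core TGACNNNGC, in 12.4%, were searched on both strands and do not overlap CACGTG here. The core was found in Dcaf12. Neither was found in Cbr1 or Irak3, which says only that these letters are not in these windows. The Cbr1 window lies within the annotated gene, which begins at 93605853, and does not reach that upstream end.

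Cbr1 (chromosome 16, 93605853 to 93610505, protein-coding, plus strand) encodes a carbonyl reductase that detoxifies reactive carbonyls and is counted among NRF2 targets. Its level was 56.9, 62.5 and 69.7 CPM (lowest, median, highest) in Cre- at 30°C and 63.5, 66.5 and 71.7 CPM in Cre- at 8°C. In BATdKO it was 50.9, 58.1 and 74.4 CPM at 30°C and 94.3, 120.5 and 139 CPM at 8°C. All 6 BATdKO mice at 8°C lay above every other library of the series. The cold response was 0.98 ± 0.10 log2 (SE) in BATdKO and 0.09 ± 0.10 in Cre-, an interaction of 0.89 ± 0.14 with adjusted p = 0.00858. Of 30 tested members of the NRF2 antioxidant list, Cbr1 was called higher (0.0561% of all genes) and 0 lower (0.04%). The median interaction of the list was 0.11 against 0.01 over all genes. The next members by p were Prdx6, a peroxiredoxin, at 0.37 ± 0.10 (adjusted p = 0.219) and Taldo1, an enzyme of the pentose phosphate pathway, at -0.51 ± 0.17 (adjusted p = 0.395).

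Dgat2 (chromosome 7, 99153658 to 99182719, minus strand) encodes an acyltransferase of the last step of triglyceride synthesis. It was 228, 251 and 399 CPM in Cre- at 30°C and 256, 265 and 304 CPM in Cre- at 8°C. BATdKO mice had 228, 305 and 350 CPM at 30°C and 458, 506 and 672 CPM at 8°C, where the 6 mice again lay above all others. The interaction was 0.81 ± 0.17 with adjusted p = 0.0715, and 0.60 ± 0.12 with adjusted p = 0.0403 without both m6 libraries at 30°C. In the list of triglyceride synthesis and lipid droplets, 1 of 22 tested genes was called higher, Dgat2 itself (0.0561% of all genes), and 0 lower (0.04%), and 4 (18.2%) had a negative interaction at an unadjusted p under 0.05, against 4.61% of all genes. They included Agpat3, which makes phosphatidic acid (-0.45 ± 0.15, adjusted p = 0.424), and Cidea, a lipid droplet protein of brown adipocytes (-0.99 ± 0.37, adjusted p = 0.495). Dgat2 and its list thus had opposite signs, with a list median of -0.08.

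Ighm (chromosome 12, 113418558 to 113422730) encodes the constant region of the IgM heavy chain. It was 5.47, 8.63 and 10.9 CPM in Cre- at 30°C and 6.81, 6.90 and 8.52 CPM in Cre- at 8°C. In BATdKO it was 7.66, 9.54 and 13.9 CPM at 30°C and 13.1, 20.0 and 27.4 CPM at 8°C, where it lay above the Cre- mice with no overlap. The interaction was 1.32 ± 0.22 (adjusted p = 0.0185). In bulk tissue, more cells of a type and more RNA per cell cannot be told apart. Of 12 lymphocyte markers, 3 were in the table, and Cd79a, Ms4a1 and Cd3e, which define B and T cells, were not among them. Igkc, the kappa light chain, had an interaction of 0.45 ± 0.23 and Trbc2, a constant region of the T cell receptor with 276 counts over all libraries, 1.69 ± 0.85 (adjusted p = 0.634 for each). All 3 were higher at an unadjusted p under 0.05 when both m6 libraries were left out, against 4.33% of all genes. Ighm had been chosen by its interaction, and that fit was chosen after the data were seen. This count is therefore no separate result. The 3 markers, Ighm included, summed to 19.2 to 25.2 CPM in Cre- and 27.7 to 44.6 CPM in BATdKO at 8°C. Their part in the Ighm result was not tested.

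Gngt2 (chromosome 11, 95837216 to 95845734) encodes a gamma subunit of heterotrimeric G proteins, and its exons overlap those of Abi3 on the other strand, which is not in the table. Its medians were 16.8 and 13.5 CPM in Cre- at 30°C and 8°C and 25.2 and 41.2 CPM in BATdKO. The BATdKO mice at 8°C (32.8 to 55.3 CPM) stood above the Cre- mice at 8°C (11.4 to 15.0 CPM) and above the BATdKO mice at 30°C (17.0 to 32.5 CPM). The interaction was 1.23 ± 0.23 (adjusted p = 0.034), and 0.91 ± 0.17 without both m6 libraries, of which Cre- m6 was the highest of its group at 30.7 CPM.

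B930025P03Rik (chromosome 8, 10870422 to 10882454, minus strand), a long noncoding RNA, had the largest interaction of the called genes, 2.02 ± 0.39 (adjusted p = 0.0363). It was at 0 to 1.89 CPM in Cre- at 30°C, 0.757 to 2.21 CPM in Cre- at 8°C, 0.678 to 2.06 CPM in BATdKO at 30°C and 4.47 to 8.71 CPM in BATdKO at 8°C. These were few reads, between 20 and 75 counts in a BATdKO library at 8°C and between 0 and 21 in the other groups. Irs2, which encodes an insulin receptor substrate, lies 102226 bases away on the same strand. Its interaction was 0.82 ± 0.18, just outside the threshold at adjusted p = 0.105. Irs2 was 14.4, 16.9 and 20.2 CPM in Cre- and 28.2, 32.7 and 49.2 CPM in BATdKO at 8°C, without overlap, and 19.9 to 29.1 and 20.9 to 30.6 CPM at 30°C, with overlap.

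Ivns1abp (chromosome 1, 151344477 to 151364422) encodes a kelch protein that binds actin. It was 56.5 to 93.7 CPM in Cre- at 30°C and 39.7 to 50.2 CPM at 8°C, and 72.2 to 85.9 and 73.5 to 90.2 CPM in BATdKO. The fall with cold in Cre- (-0.71 ± 0.09) thus had no counterpart in BATdKO (0.02 ± 0.09), an interaction of 0.72 ± 0.13 (adjusted p = 0.0303). Dcaf12, a substrate receptor of a ubiquitin ligase, had a smaller interaction of 0.66 ± 0.13 (adjusted p = 0.034). Its genotype difference was -0.37 at 30°C, where BATdKO lay below Cre- with no overlap, and 0.28 at 8°C, where the groups overlapped.

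Irak3 (chromosome 10, 120141648 to 120202130, minus strand) encodes a kinase relative that damps Toll-like receptor signalling. It was 1.37, 2.07 and 2.35 CPM in Cre- at 30°C and 3.26, 4.54 and 5.82 CPM in Cre- at 8°C, without overlap. In BATdKO it was 2.12, 2.76 and 3.63 CPM at 30°C and 1.54, 1.95 and 3.03 CPM at 8°C, below all Cre- mice at 8°C. The interaction was -1.45 ± 0.26 (adjusted p = 0.0303). A library held 1 to 47 counts of Irak3. Its exons overlap those of Tmbim4 on the other strand, whose own interaction was 0.03 ± 0.11.

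Myo5a (chromosome 9, 75071015 to 75223688) encodes an actin-based motor that carries vesicles. It was 7.16, 15.8 and 22.5 CPM in Cre- at 30°C and 30.7, 47.2 and 60.9 CPM at 8°C. In BATdKO it was 19.0, 24.6 and 35.2 CPM at 30°C and 8.41, 25.3 and 29.6 CPM at 8°C, so that the cold response was 1.47 ± 0.25 in Cre- and -0.21 ± 0.24 in BATdKO. The interaction was -1.68 ± 0.34 (adjusted p = 0.062). With robust dispersions it missed the threshold (adjusted p = 0.134). Gm47595 (chromosome 10, 61494917 to 61496290), annotated as an antisense transcript, showed the same shape. It was 10.2 to 19.4 CPM in Cre- at 8°C and between 1.76 and 6.45 CPM in every library of the other groups, an interaction of -1.63 ± 0.33 (adjusted p = 0.06).

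Mmd2 (chromosome 5, 142562358 to 142608800), a membrane protein of the progestin and adipoQ receptor family, had medians of 14.5 and 12.3 CPM in Cre- at 30°C and 8°C and 23.9 and 6.62 CPM in BATdKO. The fall with cold was -2.03 ± 0.22 in BATdKO and -0.62 ± 0.21 in Cre-, an interaction of -1.41 ± 0.30 (adjusted p = 0.0886). Gm5898 had the smallest change, -0.60 ± 0.13 (adjusted p = 0.0855). It is annotated as a processed pseudogene, so that its reads may be shared with the parent gene. Just outside the threshold, beside Irs2, stood Lrrn4 (2.94 ± 0.66), Rcor3, a corepressor subunit of the CoREST family (-0.73 ± 0.16), and Mios, each with adjusted p = 0.105. Mios, a subunit of the GATOR2 complex upstream of mTORC1, was 5.08 to 8.63 CPM in Cre- and 3.05 to 4.62 CPM in BATdKO at 8°C, without overlap.

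**Figure D2:**
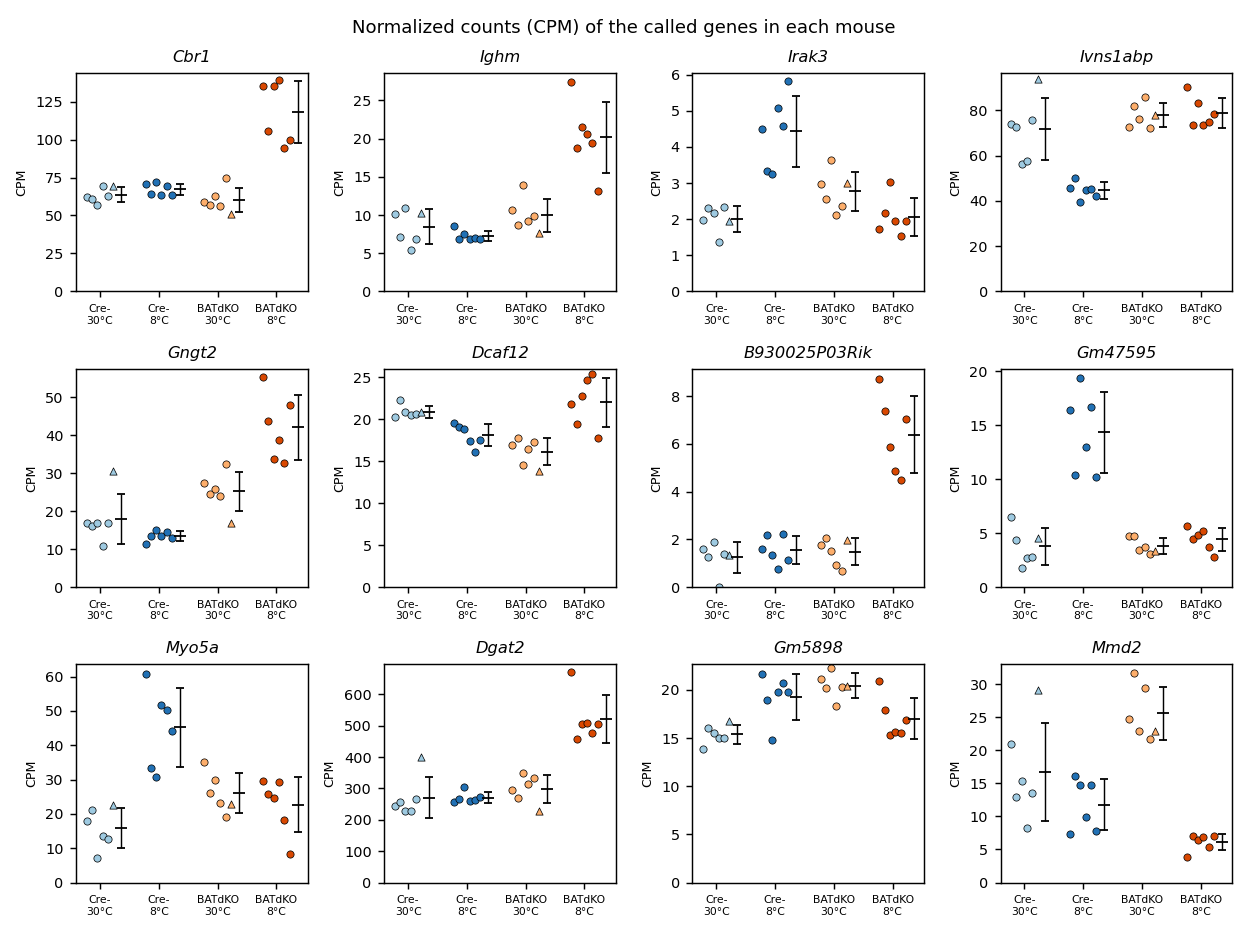
CPM of the 12 called genes in each mouse on linear axes from 0, by labelled genotype and temperature, with the mean and SD of 6 mice beside each group. Triangles mark the m6 libraries at 30°C. In 6 panels BATdKO at 8°C lies above Cre- at 8°C without overlap, and in 4 below. The genes were chosen by an interaction that uses these values, and no share over all genes is given. The number of panels without overlap is therefore no separate result.

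For part of these genes the call was lost in some of the fits that left out 1 library, while the estimate kept its sign. The interaction ranged from -1.64 to -1.30 for Mmd2 and from -0.66 to -0.57 for Gm5898. Cbr1, Ighm, Irak3, Ivns1abp, Gngt2, Dcaf12 and B930025P03Rik were called in all 24 fits that left out 1 library. Gm47595 was called in 19 of 24, Myo5a in 16, Dgat2 in 13, Gm5898 in 9 and Mmd2 in 7. The count of called genes ranged from 7, without BATdKO at 30°C m2, Cre- at 8°C m5 or BATdKO at 8°C m5, to 37 without Cre- at 8°C m2. It also rose above 1.5 times the count on all libraries without Cre- at 30°C m1 (35), Cre- at 30°C m6 (32) or BATdKO at 30°C m4 (21). All 12 genes were among the 51 called by DESeq2 and the 48 called by limma voom with quality weights.

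**Figure D3:**
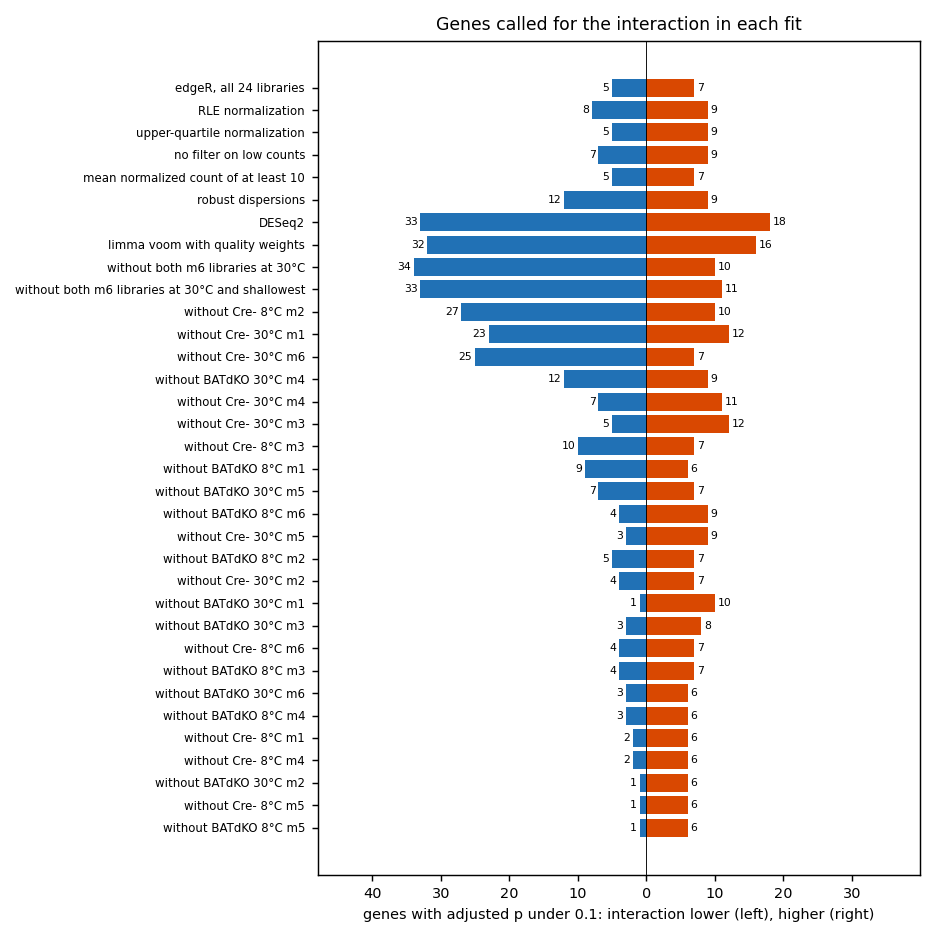
Number of genes with adjusted p under 0.1 for the interaction in each fit, lower to the left and higher to the right of 0. The 12 genes of the edgeR fit on all libraries stand at the top, other settings follow, and fits that leave out a single library are ordered by their count, from 37 to 7.

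Genes induced by cold more often had a smaller than a larger response in BATdKO, and genes reduced by cold did not on all 24 libraries. Across all 12485 genes, which are not independent replicates, the cold responses of the genotypes, which share no library, had a Pearson r of 0.59 and a Spearman rho of 0.38, and the SD of the response in BATdKO was 0.93 times that in Cre- (1.02 times with limma voom). Averaged over both genotypes, 1945 genes (15.6%) were called for cold, 1015 induced (8.13%) and 930 reduced (7.45%). Among the induced genes the response was smaller in BATdKO for 636 and larger for 379 (62.7% smaller), where 49% of all tested genes had a negative interaction. The median response of the induced genes was 0.44 in Cre- and 0.35 in BATdKO. An unadjusted p under 0.05 was reached by 115 of the induced genes with a smaller and 36 with a larger response in BATdKO. Of the reduced genes, 449 had a smaller and 481 a larger response in BATdKO, with medians of -0.35 in Cre- and -0.39 in BATdKO. Leaving out 1 library at a time, the share of induced genes with a smaller response ranged from 56.2% without BATdKO at 30°C m4 to 70.7% without Cre- at 30°C m6. Without both m6 libraries it was 74.1% of 1065, and for the reduced genes the share went from 48.3% to 56.6% of 1051. The 14 hepatocyte markers had a median interaction of 0.18, with 13 above 0 and none at an unadjusted p under 0.05, and their part in this difference was not tested.

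**Figure D4:**
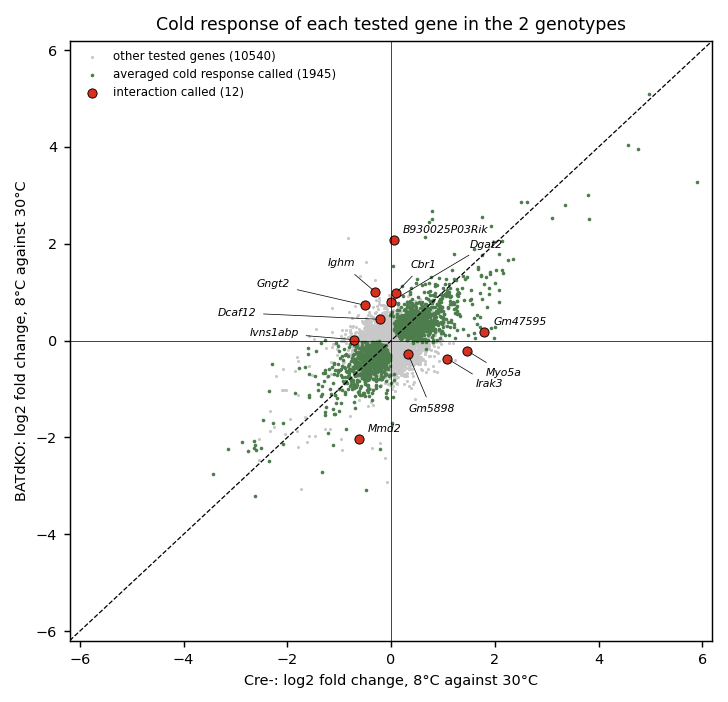
Log2 fold change from 30°C to 8°C in Cre- (horizontal) against BATdKO (vertical) for each of the 12485 tested genes, with equal changes on the dashed line. The 1945 genes called for cold averaged over genotypes are green and lie mostly along the line, and the 12 genes called for the interaction are red and labelled.

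No thermogenic gene was called for the interaction on all libraries, where 0.0961% of all genes were called. At that share, a list of 18 genes without a call says little. The median cold response of the list was 0.96 in Cre- and 0.75 in BATdKO. Of 18 tested members of the thermogenic and brown adipocyte identity list, 15 had a negative interaction, with a list median of -0.42 against 0.01 over all genes. An unadjusted p under 0.05 was reached by 2 lower members (4.61% of all genes), Cidea and Adrb3, and by 1 higher (3.44% of all genes), Elovl3. Adrb3, the beta3-adrenergic receptor, was 41.1 to 57.2 CPM in Cre- and 14.6 to 34.6 CPM in BATdKO at 8°C, without overlap, and its interaction was -0.93 ± 0.36 (adjusted p = 0.497). Dio2, which activates thyroid hormone, changed by 4.56 ± 0.38 in Cre- and 4.05 ± 0.33 in BATdKO, and Ppargc1a, a coactivator of mitochondrial biogenesis, by 1.27 ± 0.16 and 0.95 ± 0.15.

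For Ucp1 the interaction turned on the m6 libraries. On all 24 libraries it was -0.56 ± 0.57 (adjusted p = 0.853), and the cold response was 3.10 ± 0.44 in Cre- and 2.54 ± 0.43 in BATdKO. Apart from m6, the Cre- mice at 30°C had 28.9 to 133 CPM and the BATdKO mice at 30°C 217 to 412 CPM, without overlap. At 8°C the groups overlapped, at 967.5 to 2076 CPM in Cre- and 1331 to 2029 CPM in BATdKO. Without both m6 libraries the interaction was -1.55 ± 0.35 log2. Ucp1 was among the genes whose levels set these libraries apart, so that this value is a description and no test of Ucp1. Bmp8b, a secreted BMP that sensitises brown fat to noradrenaline, did not overlap between the genotypes at 8°C. It was 8.85 to 19.9 CPM in Cre- and 0.871 to 4.52 CPM in BATdKO at 8°C and 2.09 CPM or less in all mice at 30°C, and the interaction was -0.80 ± 0.77 (adjusted p = 0.839), from -1.39 without Cre- at 30°C m2 to -0.41 without BATdKO at 30°C m6.

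Enzymes that make fatty acids mostly had smaller fitted cold responses in BATdKO. None passed the adjusted test of the interaction, against 0.0961% of all genes. Of 21 tested genes of de novo lipogenesis, 16 had a negative interaction (median -0.21), where 49% of all genes had one. An unadjusted p under 0.05 was reached by 6 lower (28.6%, against 4.61% of all genes) and 2 higher members (9.52%, against 3.44%). The median ranged from -0.32 without Cre- at 30°C m1 to -0.10 without BATdKO at 30°C m1. Slc25a1, which exports citrate from mitochondria for this pathway, rose by 0.84 ± 0.11 in Cre-, with an estimate of 0.25 ± 0.10 in BATdKO (interaction -0.59 ± 0.15, adjusted p = 0.168). Fasn, the fatty acid synthase, was 1611 to 2658 CPM at 30°C and 3104 to 4883 CPM at 8°C in Cre-, and 1733 to 3059 and 1507 to 3212 CPM in BATdKO. Its interaction was -0.67 ± 0.22 (adjusted p = 0.358). Acaca, whose enzyme makes malonyl-CoA, had an interaction of -0.71 ± 0.28 (adjusted p = 0.511). Elovl6, an elongase, had cold responses of 1.39 ± 0.20 in Cre- and 1.34 ± 0.20 in BATdKO.

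Lists of fuel use differed in their medians. In fatty acid oxidation, 21 of 29 tested members were below 0 (median -0.16), among them Etfdh, which passes electrons from fatty acid oxidation to ubiquinone (-0.69 ± 0.19, adjusted p = 0.243), and Crat, a carnitine acetyltransferase (-0.57 ± 0.17, adjusted p = 0.313). For lipolysis it was 11 of 14 (median -0.15, from -0.29 without Cre- at 30°C m6 to -0.03 without Cre- at 30°C m3), with Hcar1, the lactate receptor that restrains lipolysis, at -2.61 ± 0.65 (adjusted p = 0.162). Hcar1 was 0.162 to 0.688 CPM in BATdKO at 8°C and 1.37 CPM or more in every library of the other groups. These levels rest on few reads, since 3 counts stand for about 0.264 to 1.10 CPM in the BATdKO libraries at 8°C. In Cre- at 30°C m4, the shallowest library, 3 counts stand for about 4.29 CPM. In adrenergic and cAMP signalling, 23 of 34 were below 0 (median -0.15), and Rgs2, which shortens G protein signals, stood at 1.21 ± 0.29 (adjusted p = 0.126). Nuclear-encoded respiratory chain genes had a median of -0.01 over 58 genes, glucose uptake and glycolysis 0.07 over 24 and fatty acid uptake and binding 0.11 over 20.

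Cell division, interferon-stimulated and insulin signalling genes had medians above that of all genes. In cell division, 15 of 18 tested genes were above 0 (median 0.35, from 0.20 without Cre- at 30°C m6 to 0.50 without Cre- at 8°C m2). Of all 12485 genes, 6373 were above 0. The list held 34 genes, and Ccnb1, Cdk1, Aurkb and Plk1, which act in mitosis, were among those not tested. An unadjusted p under 0.05 was reached by 3 higher members (16.7%, against 3.44% of all genes), Rrm1, Mcm6 and Cdkn1a, of which the last encodes an inhibitor of the cycle. Of the interferon-stimulated genes, 26 of 32 were above 0 (median 0.19), led by Oas1a at 0.70 ± 0.33 (adjusted p = 0.603). Insulin and growth hormone signalling had a median of 0.15 over 31 genes, with Irs2 at 0.82 ± 0.18 and Socs2, an inhibitor of growth hormone signals, at 1.01 ± 0.27 (adjusted p = 0.214). Fabp3, a fatty acid carrier of heart and brown fat, was 14.2 to 24.9 CPM in Cre- and 19.3 to 82.3 CPM in BATdKO at 8°C, with overlap (1.73 ± 0.54, adjusted p = 0.333). Subunits of the NCOR/HDAC3 complex and class IIa HDACs had a median of -0.04 over 16 genes. None was called, against 0.0961% of all genes.

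**Figure D5:**
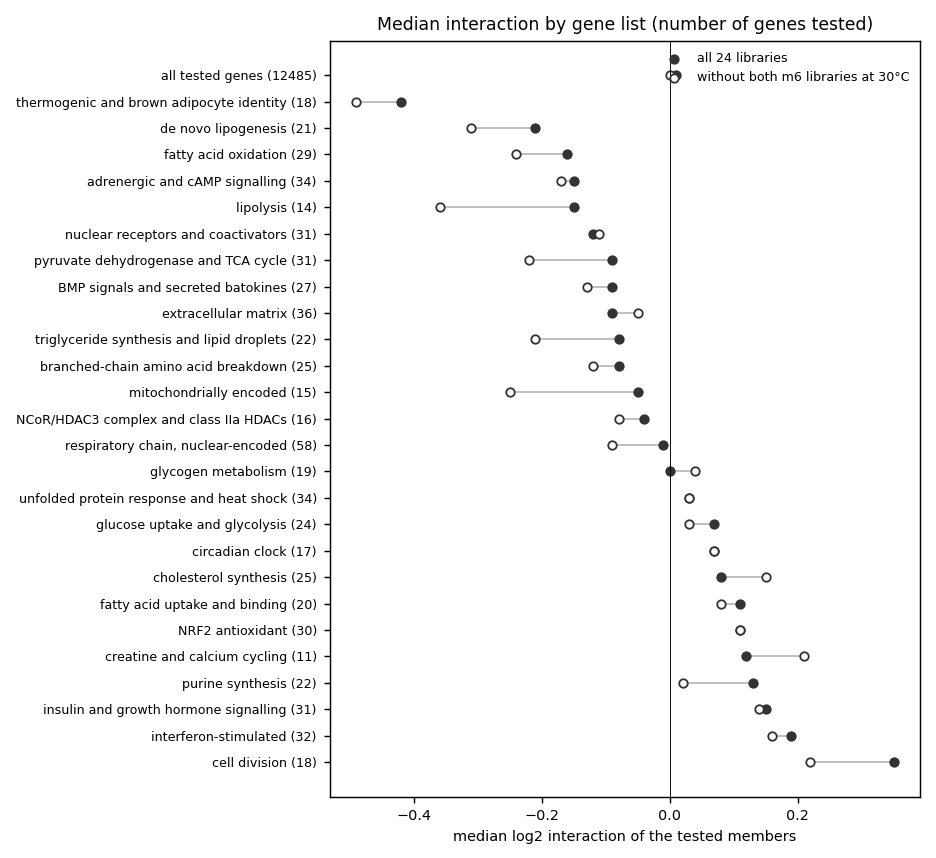
Median log2 interaction of the tested members of each of 26 functional lists and of all tested genes, on all 24 libraries (filled) and without both m6 libraries at 30°C (open), ordered by the filled value. The medians run from -0.42 for thermogenic genes to 0.35 for cell division, and all tested genes lie at 0.01.

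Markers of other cells also differed in level between the groups. Summed white adipocyte markers (6 of 11 in the table) were 120.9 to 214 CPM in BATdKO and 192 to 426 CPM in Cre- at 8°C, and Schwann cell and nerve markers (4 of 10) 21.1 to 28.6 and 46.0 to 76.0 CPM. Skeletal muscle markers (22 of 26) ranged from 67.8 to 16343 CPM within Cre- at 30°C alone. Macrophage markers had a median interaction of -0.02 over 14 genes and endothelial markers -0.17 over 12. None of either was called, against 0.0961% of all genes. Their part in the lists above was not tested.

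Without both m6 libraries at 30°C, 44 of 12500 genes (0.352%) were called, 10 higher (0.08%) and 34 lower (0.272%), and they included all 12 genes above. The 32 additional genes, named here after their values were seen, differed in where the genotypes parted. At 30°C 28 of the 32 were called for genotype and at 8°C 5. Of the first 12 in the same fit, 5 were called at 30°C and 10 at 8°C. Of all 12500 genes, 500 (4%) were called for genotype at 30°C and 324 at 8°C. On all 24 libraries edgeR called 0 at 30°C. The libraries left out had stood apart at 30°C, and the genotype comparison at 30°C is part of the interaction. These counts therefore describe the fit and do not test where the genotypes part. Dusp4, a MAP kinase phosphatase, was 0.81 to 2.71 CPM in 5 Cre- mice and 7.27 to 13.9 CPM in 5 BATdKO mice at 30°C, and 4.15 to 8.82 and 4.74 to 9.96 CPM at 8°C (interaction -2.50 ± 0.36, adjusted p = 0.00276). Its interaction on all 24 libraries was -1.15 (adjusted p = 0.651). Ucp3, a relative of Ucp1, Gpd1, which makes glycerol 3-phosphate, and Pdk4, which inhibits pyruvate dehydrogenase, were likewise apart at 30°C among the mice kept. Cre- lay below BATdKO there, and the groups overlapped at 8°C, with interactions of -1.65 ± 0.39, -0.91 ± 0.21 and -2.12 ± 0.48. With all 24 libraries these were -0.62, -0.50 and -1.56 (adjusted p of 0.806, 0.682 and 0.391). Nat8l, which makes N-acetylaspartate in brown adipocytes, was instead apart at 8°C, at 29.2 to 47.5 CPM in Cre- and 11.3 to 24.3 CPM in BATdKO (-1.44 ± 0.24, adjusted p = 0.00713). On all 24 libraries its interaction was -1.14 ± 0.27 (adjusted p = 0.136). Without both m6 libraries the median interaction was -0.49 for thermogenic genes, -0.36 for lipolysis, -0.31 for de novo lipogenesis and 0.22 for cell division. Among the thermogenic genes Cidea was then called lower (-1.48 ± 0.28, adjusted p = 0.0211), beside Ucp1, which had helped to set the m6 libraries apart. On all 24 libraries Cidea was at -0.99 (adjusted p = 0.495). Both m6 libraries were left out after their levels of Tbl1xr1 and Ucp1 were seen. The calls of this paragraph are therefore a description and no independent test.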

How the data were processed

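BAT RNA of 24 mice was sequenced with the Lexogen QuantSeq 3′ FWD kit. Forward reads went through BBDuk (trimming), STAR (alignment, GRCm38) and Rsubread (counting), and the authors deposited the raw counts of 12615 genes. The annotation release, the strand setting and the filter on low counts are not given in the sources used here. The paper removed outliers without naming the mice, and all 24 libraries were used here. Groups were taken from the labels, and mice are called m1 to m6 in each group. Mouse numbers pair no mice, and nothing says whether mice shared a litter.

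The analysis used edgeR 4.0.16 and limma 3.58.1 under R 4.3.3 with TMM, filterByExpr (12485 genes kept, 130 removed), a mean for each of the 4 groups and the quasi-likelihood test, with Benjamini-Hochberg adjustment over all tested genes and the paper's threshold of 0.1. A standard error is the absolute log2 value divided by the square root of F. CPM of single genes use TMM library sizes, and sums over markers the total counts. With 699703 counts in the shallowest library (Cre- at 30°C m4), low genes there rest on few reads. The members, gene lists and tests were chosen with earlier results of these data known. Lists are described by counts and medians without a test, and 12608 genes were matched to a symbol. The text names genes called for the interaction, those with the smallest p in each direction (15) and in each list (3), and genes fixed from the paper; further genes are said to be chosen after their values were seen, and members of the lists are named as examples.

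The fits were tested on simulated data. Alternatives were RLE and upper-quartile normalization, no filter, a filter at a mean normalized count of 10, robust dispersions, DESeq2 1.42.0, limma voom with quality weights and leaving out each library. Leaving out both m6 libraries at 30°C, alone or with the shallowest library, was an alternative chosen after seeing the data. Positions and overlaps are from GENCODE vM21 (GRCm38). Of 124 genes named by the rule, 5 overlap an exon of another gene on the same strand and 51 an exon on the opposite strand.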

Additional observations from a re-analysis of the deposited data

Results flagged for a closer look

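For each of the 12 called genes the effect of cold differed between the genotypes by the test of the difference itself. The log2 differences were 0.89 for Cbr1, 1.32 for Ighm, 0.72 for Ivns1abp, 1.23 for Gngt2, 0.66 for Dcaf12, 2.02 for B930025P03Rik and 0.81 for Dgat2, and -1.45 for Irak3, -1.63 for Gm47595, -1.68 for Myo5a, -0.60 for Gm5898 and -1.41 for Mmd2.

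A single mouse stood far from the other 5 of its group in 16 of 104 groups examined. At the 95% limit used, chance gives about 1 in 20 among independent groups, and these groups reuse the same libraries, so that no excess is read from the count. In Cre- at 30°C, m6 was the highest for Gngt2 (30.68 CPM, next 16.84), Dgat2 (399.4, next 264.7), Tbl1xr1 (38.61, next 24.60) and Ucp1 (547.9, next 133.0). BATdKO at 30°C m6 was the lowest for Tbl1x (39.65 CPM, next 53.36) and the highest for summed red blood cell markers (5173 CPM, next 3865). Among the called genes, Dcaf12 was highest in Cre- at 30°C m2 (22.25 CPM), and B930025P03Rik was at 0 in Cre- at 30°C m4, the shallowest library. Dgat2 was also highest in Cre- at 8°C m3 (304.2 CPM, next 272.0) and in BATdKO at 8°C m1 (672.2, next 508.7). Of the summed markers, hepatocyte genes were lowest in BATdKO at 30°C m1 (34780 CPM), and adipocyte progenitor genes were highest in Cre- at 8°C m2 (228.0 CPM) and BATdKO at 30°C m2 (209.4 CPM). BATdKO at 30°C m2 was also the highest for white adipocyte markers (1225 CPM, next 700.8). Schwann cell markers were highest in Cre- at 30°C m1 (57.34 CPM) and red blood cell markers in Cre- at 30°C m5 (5234 CPM).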

How the results depend on the processing

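The interaction count of 12 became 21 with robust dispersions, 51 with DESeq2, 48 with limma voom and 44 without both m6 libraries at 30°C, also with the shallowest library left out, and ranged from 7 to 37 when single libraries were left out. Genes called for genotype at 30°C went from 0 to 90 (DESeq2), 44 (voom), 500 without both m6 libraries and 546 without the shallowest library as well, and from 0 to 369 over single libraries, the last without Cre- at 30°C m6. Cold in Cre- called 1766 without these 3 libraries and 791 to 1343 over single libraries. Cold in BATdKO called 1371 with voom and 574 to 1069 over single libraries, the lowest without BATdKO at 8°C m4. Genotype at 8°C called 550 with voom and 138 to 276, the lowest without BATdKO at 8°C m5. The correlation of the cold responses was 0.57 without the filter and with DESeq2, 0.46 with voom, 0.56 without both m6 libraries and without the shallowest as well, 0.86 over genes called for cold, a choice by the mean of both responses that itself favours agreement, and 0.54 to 0.60 over single libraries. The ratio of SDs was 1.02 with voom, 0.85 and 0.83 without the doubted libraries, 0.90 over genes called for cold, and 0.86 to 1.01 over single libraries. Signs turned for 5 genes that were not called. Without both m6 libraries, and with the shallowest left out too, Cidec was at -0.27 and -0.22, Tbl1x at -0.12 and -0.09 and Npc2 at -0.08 and -0.02, and Acta1 was at -3.34 with voom. Over single libraries Cidec ranged from -0.13 to 0.46, Scd2 from -0.59 to 0.20, Tbl1x from -0.05 to 0.10, Acta1 from -0.90 to 1.12 and Npc2 from -0.06 to 0.09. The 12 called genes kept their direction in every fit run. The causes were not tested. No paired analysis was possible because each mouse has its own number, which pairs no samples between groups.

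Limits are the depth of low genes such as Irak3 and B930025P03Rik, deleted exons that are not given, the m6 libraries at 30°C, and hepatocyte transcripts in all libraries. The sources used here give no strand setting, so that reads of overlapping genes cannot be told apart. The libraries of 30°C and of 8°C carry separate runs of library codes, and a shift common to both genotypes cancels in the interaction. A shift that differs between the genotypes would not cancel, and none was tested. The cold responses within a genotype cannot be told apart from these runs, or from 4 days of housing at 30°C against 6 days at 8°C.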
